A study of Mus musculus with 2 samples.

Results

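Mir140 and Mir455, a pair of microRNA genes linked to cartilage, were examined in small RNA libraries from skeletal muscle of newborn mice. They were chosen by name, matching the Ensembl gene IDs of the deposited count tables to GENCODE symbols, and are 2 of the 1973 microRNA genes counted. RNA under 30 bases came from newborn B6NCrl muscle (postnatal day 0) in 2 libraries, each made from a piece of muscle of 1 pup, with no allele, agent or treatment named. The libraries are biological replicates 1 and 2 of 1 group, and the study has no contrasting condition. Both carry the same donor record, so differences between them measure only the spread between these samples, and sex was not collected.

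MicroRNAs are short RNAs cut from hairpins that bind messenger RNAs by base pairing and reduce the protein made from them, mainly through the seed, bases 2 to 8 of the mature strand. Mir140, which gives miR-140-5p and miR-140-3p, lies in Wwp2, a ubiquitin ligase gene, and is best known from chondrocytes, the cells of cartilage, where the transcription factor Sox9 drives it and where its loss in mice shortens the skeleton. Mir455, which gives miR-455-5p and miR-455-3p, lies in Col27a1, a fibrillar collagen gene of growing cartilage, is also linked to Sox9, and has been described in brown fat cells too. Neither gene is a classical muscle microRNA.

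The mature strands present in the RefSeq table used (GRCm38.p6) are shown because the seed sets which messenger RNAs each could pair with. The counts below do not separate the strands of a gene. That RefSeq table has no entry for miR-140-5p, so its seed was left out of the search below. The seed is in capitals.
mmu-miR-140-3p: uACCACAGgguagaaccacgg
mmu-miR-455-5p: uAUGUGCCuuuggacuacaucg
mmu-miR-455-3p: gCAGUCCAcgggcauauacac
They lie on the plus strand at chr8:107551288-107551308, chr4:63256867-63256888 and chr4:63256904-63256924. The 3 seeds differ from each other. Among 1738 mature strands in the RefSeq table, the seed of miR-455-3p occurred in no other. The seed of miR-140-3p occurred in 1 other strand and that of miR-455-5p in 1 other, shown here to set their levels beside the pair.
mmu-miR-497b: cACCACAGugugguuuggacgugg
mmu-miR-5129-3p: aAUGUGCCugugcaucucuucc
Mir497b had 0 counts in both libraries, which allows up to 3 counts (0.377 CPM in replicate 1 and 0.277 CPM in replicate 2). CPM is a gene's annotated-strand count per 1000000 such counts of the library's microRNA genes. The 5384 and 5822 counts opposite Mir497b lie on the strand of Mir497, which overlaps it. Mir5129, in Zeb2, had 3 and 6 counts (0.377 and 0.555 CPM). By gene counts, then, Mir140 and Mir455 were the only genes at or above 10 counts in both libraries whose strands in the RefSeq table carry one of these 3 seeds.

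Each gene lies on its host's strand in an intron of the coding transcript and was the only microRNA gene of the tables inside that host. Mir140 (ENSMUSG00000065439.1) is annotated at chr8:107551244-107551313 (GRCm38, plus strand, 70 bases), in intron 16 of the 24-exon transcript Wwp2-201. It starts 114.9 kb from the transcript's start, 94.0% of the way along, and the intron is 2141 bases long. A further Wwp2 transcript, annotated as a retained intron, covers Mir140 in its exon. Mir455 (ENSMUSG00000070102.1) is annotated at chr4:63256851-63256932 (plus strand, 82 bases), in intron 10 of the 61-exon transcript Col27a1-201. It starts 41.4 kb from the transcript's start, 34.6% of the way along, and ends 127 bases before exon 11, while Mir140 ends 963 bases before exon 17. The hairpins have a GC content of 52.9% and 54.9%, inside the middle 50% of detected genes (44.4% to 56.7%). No 20-base stretch of either annotated hairpin recurs in another microRNA gene, whereas 79 share one among the 365 genes that reached 10 counts in each library, called detected from here on. Messenger RNA of the hosts was not measured.

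**Figure D1:**
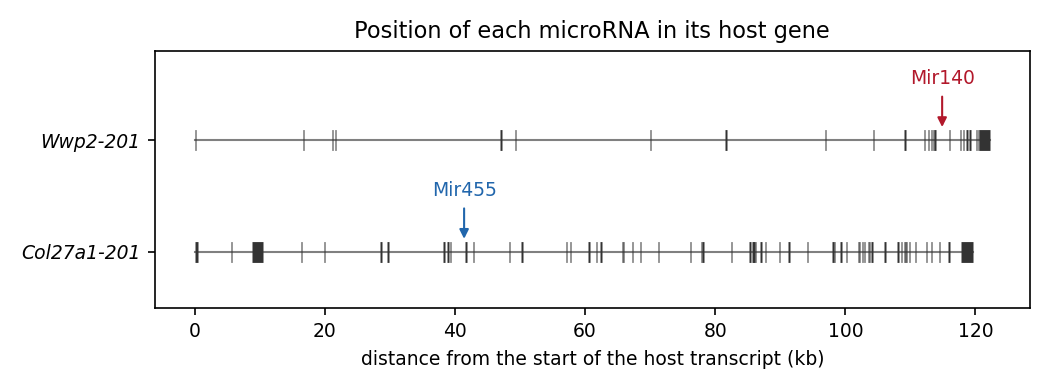
Exons (dark bars, drawn at least 0.2 kb wide) of the coding transcripts Wwp2-201 and Col27a1-201 by distance from the transcript's start in kb, with the place of each microRNA marked by an arrow. Mir140 sits 114.9 kb from the start, near the end of Wwp2, and Mir455 41.4 kb from the start of Col27a1.

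Both genes were readily detected. Mir140 had 9997 counts in replicate 1 and 11607 in replicate 2, that is 1257 CPM (95% exact binomial interval 1232 to 1281) and 1073 CPM (1054 to 1093). Mir455 had 7548 and 9680 counts, 949 CPM (927 to 970) and 895 CPM (877 to 913). Intervals and floors cover counting error only. The mean level was 1165 CPM ± 130 for Mir140 and 922 CPM ± 38.0 for Mir455 (SD, n = 2). Both values of Mir140 exceeded both values of Mir455, so the pair's ranges did not overlap. Opposite-strand counts of both genes were 0 in both libraries, as for 324 of the 365 detected genes. As a share of all reads of a library, unmapped and multiply fitting ones included, Mir455 had 460.3 and 460.1 counts per 1000000 reads, and Mir140 had 609.6 and 551.7. On that scale Mir455 differed between the libraries by far less than Mir140. That order depends on the scale. With the TMM scaling used further below it was reversed, at log2 ratios of -0.16 for Mir455 and -0.018 for Mir140 (replicate 1 over replicate 2).

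Within a library, Mir140 exceeded Mir455 1.32-fold in replicate 1 (95% interval 1.29 to 1.36) and 1.20-fold in replicate 2 (1.17 to 1.23), a mean of 1.26 ± 0.0887 (SD, n = 2). This ratio needs no scaling between libraries. The intervals do not overlap, but they hold counting error alone, and the ratio was not tested over the 2 samples. Divided by the annotated length of the gene, which is longer for Mir455, the mean ratio was 1.48. RNA under 30 bases is shorter than either hairpin, so counts need not grow with that length. Per-base values here and below therefore give another scale, not a corrected level. Together the pair took 0.221% and 0.197% of annotated-strand counts, 0.209% ± 0.0168 (SD, n = 2).

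By mean CPM, Mir140 ranked 78 and Mir455 90 of 365 detected genes, at percentiles 78.8 and 75.5. Among those 365, 79 share a stretch and are ranked by lower limits. Opposite-strand counts, 955977 in replicate 1 and 1456833 in replicate 2 over all microRNA genes counted, also stayed out of the ranks. For both reasons the pair's places here and below could be lower in truth. Counted per annotated base, the ranks were 74 and 90. The single libraries placed Mir140 at rank 79 and 80, and Mir455 at rank 95 and 88. The median detected gene had 87.0 CPM. Both genes were also in the upper part of those with a coding host: among the 160 detected microRNA genes in introns on the strand of a coding gene, whose median was 50.9 CPM, Mir140 ranked 26 and Mir455 32. The other microRNA gene of the tables inside a collagen gene, Mir711 in Col7a1, had 0 counts in both libraries, under the same floor of 3 counts.

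**Figure D2:**
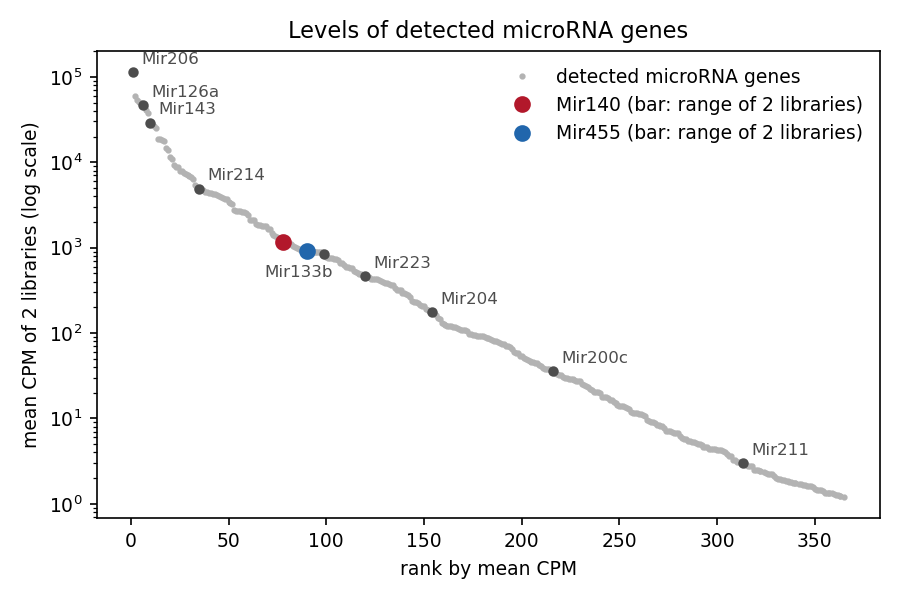
Mean CPM of 2 libraries (log scale) against rank for the 365 detected microRNA genes, with Mir140 and Mir455 in colour, their library ranges narrower than the points, and named genes of other lists in dark grey. Mir140 (1165 CPM) and Mir455 (922 CPM) lie between the mesenchymal Mir214 (4891 CPM) and the muscle gene Mir133b (832 CPM, a lower limit).

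The order of mean CPM shows which genes had levels like those of the pair. In that order Mir140 was preceded by Mir196a-2 (1287 CPM ± 213) and Mir324 (1215 ± 272) and followed by Mir101b (1141 ± 104) and Mir20a (1112 ± 458; SD, n = 2). Mir455 was preceded by Mir92-1 (939 CPM ± 104) and Mir361 (933 ± 28.9) and followed by Mir676 (911 ± 32.2) and Mir18 (910 ± 186). For all 8 of these the values of the 2 libraries overlapped those of Mir140 or Mir455 respectively. They were picked for the closest mean levels, so this overlap was nearly fixed by the choice. In all, 15 other detected genes overlapped the range of Mir140 and 16 that of Mir455.

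Likeness was measured as the Euclidean distance over log2(CPM + 1) in the 2 libraries, so it rests on 2 points per gene. Nearest to Mir140 were Mir101b (distance 0.049, in an intron of Rcl1), Mir324 (0.18), Mir500 (0.19), Mir667 (0.21) and Mir196a-2 (0.21). Mir101b, with 1215 and 1068 CPM, followed Mir140 most closely, but it shares a 20-base stretch with another gene, as Mir196a-2 does, and its level is a lower limit. Nearest to Mir455 were Mir361 (0.029, 953 and 912 CPM, in an intron of Chm), Mir872 (0.052), Mir130b (0.071), Mir450b (0.078) and Mir539 (0.096). None of these 5 shares such a stretch. Mir667 and Mir539 lie on chromosome 12, and Mir361, Mir450b and Mir500 on chromosome X, while none of the 10 lies on the chromosome of its own member except Mir872, on chromosome 4.

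Of 16 microRNA genes linked to chondrocytes in the literature, Mir140 and Mir455 included, 13 were detected, and Mir140 and Mir455 stood in the upper part of their levels. Mir322, of an X chromosome cluster, stood highest with 25226 CPM ± 2016, followed by Mir337 of the imprinted Dlk1-Dio3 domain with 6433 ± 790 and Mir27b with 1836 ± 59.5 (SD, n = 2). Mir27b also shares a stretch with a paralog, so its level is a lower limit. Mir145a, which can target Sox9, had 890 CPM ± 177, with 1016 and 765 CPM on either side of the 2 values of Mir455. The intronic Mir574 in Fam114a1 (431 ± 39.0) and Mir320 (591 ± 142) were lower than both.

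Lower in the list stood, among others, further genes tied to Sox9. Mir675, cut from the noncoding RNA H19 and described as raising type II collagen in chondrocytes, had 117 CPM ± 3.56. Per annotated base, Mir140 was 11.9-fold and Mir455 8.07-fold higher in the means. Mir1247, reported to stand in mutual repression with Sox9, had 54 and 62 counts, 6.26 CPM ± 0.746. Mir29a, of a family that targets collagens, had 163 CPM ± 25.3, while Mir29c (79.0 ± 14.7), Mir29b-1 and Mir29b-2 share a stretch with a paralog, the last pair with at most 15 counts in a library. Mir365-2 had 24 and 21 counts and Mir365-1 3 and 2, and these share a stretch too. From Mir322 at 25226 CPM to Mir365-1 at 0.281 CPM, Mir140 and Mir455 stood at places 4 and 5 of the 16 by mean CPM. Per annotated base Mir145a exceeded Mir455, 1.25-fold in replicate 1 and 1.001-fold in replicate 2.

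**Figure D3:**
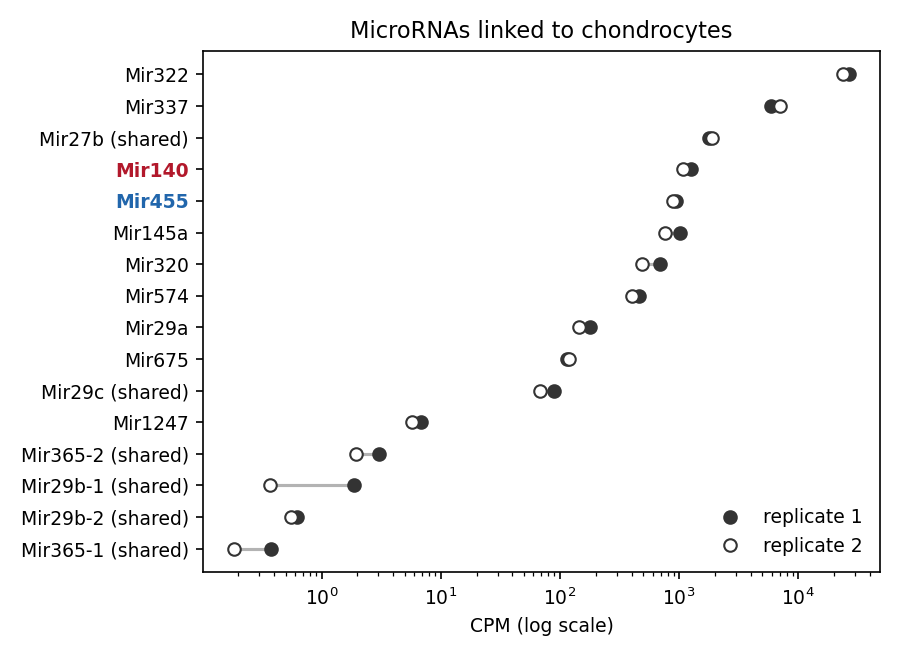
CPM (log scale) in replicate 1 (filled) and replicate 2 (open) of the 16 listed genes, ordered by mean, with genes that share a 20-base stretch with another gene marked as shared. Mir140 and Mir455 lie next to each other, below Mir27b and above Mir145a, far above Mir675 and Mir1247.

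Markers of other cell types set the levels in context, and in bulk tissue fewer cells of a type and less RNA per cell cannot be told apart. Mir206, the muscle-specific gene and the check of the tissue label, ranked 1 of all detected genes with 113917 CPM ± 9579 (SD, n = 2). Per annotated base it exceeded Mir140 81.8-fold in replicate 1 and 107.8-fold in replicate 2. The endothelial Mir126a (46207 CPM ± 1727) and the smooth muscle gene Mir143 (29128 ± 1961) were also far above the pair. Among mesenchymal genes, Mir214 exceeded Mir140 2.75-fold and 2.58-fold per base, while Mir199b (880 ± 397) and Mir199a-2 (87.0 ± 42.5) are lower limits because they share a stretch. Both Mir140 and Mir455 exceeded Mir133b (832 CPM ± 12.6, a lower limit) and the slow-myosin gene Mir208b (747 ± 21.6) in both libraries, per gene and per base. The other muscle genes of the list were lower still: Mir499 (493 CPM ± 72.9), Mir1a-1 (8.26 ± 2.53), Mir133a-1 (5.73 ± 0.255) and Mir133a-2, which was not detected. Mir1a-1, Mir133a-1 and Mir133a-2 share a stretch with another gene, so their counts are lower limits.

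Counts of the genes linked to bone-forming cells were below those of the pair. Mir204, in Trpm3 and known to target the bone factor Runx2, had 175 CPM ± 38.0, and per base Mir140 was 6.04-fold and 7.03-fold higher in replicates 1 and 2. Its relative Mir211 had 28 and 27 counts and Mir2861 0. Mir218-2 had 123 and 67 counts and Mir218-1 22 and 18, both lower limits because they share a stretch. Of other non-muscle lists, the highest members were Mir223 (leukocyte, 465 CPM ± 88.3), Mir451a (erythroid, 404 ± 204) and Mir203 (skin, 280 ± 16.6), all under both members in both libraries. Of the 6 neuronal genes listed, 3 had a row in the tables, with at most 8 counts, and all 3 share a stretch with another gene, which makes their counts lower limits.

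The last question was how far each gene differed between the libraries, tested for every detected gene by an exact two-sided binomial test on TMM-scaled library sizes (Benjamini-Hochberg over 365 genes). The test sets 1 library against the other, not conditions, and allows for counting error alone. For Mir140 the log2 ratio of replicate 1 over replicate 2 was -0.018 (95% counting interval -0.056 to 0.021, adjusted p = 0.463, exact binomial). For Mir455 it was -0.16 (-0.20 to -0.12), a ratio of 0.894, with an adjusted p of 8.69e-13 (exact binomial), so it passed the adjusted p as 61.1% of detected genes did (31.0% in the same direction). Neither reached 2-fold, which 7.40% of detected genes did together with the adjusted p, 6.30% as higher in replicate 1 and 1.10% as higher in replicate 2. The difference of Mir455 was smaller than the usual difference between the libraries, a median absolute log2 ratio of 0.31. By absolute ratio from the smallest, Mir140 ranked 19 and Mir455 97 of 365. Under library totals in place of TMM both directions turned, to 0.23 and 0.084, and both passed the adjusted p (3.16e-30 for Mir140 and 2.83e-04 for Mir455, exact binomial), since that choice moves every ratio by 0.25. The median over all detected genes went from 0.015 to 0.26. Under both scalings Mir140 lay close to the median gene and Mir455 below it.

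**Figure D4:**
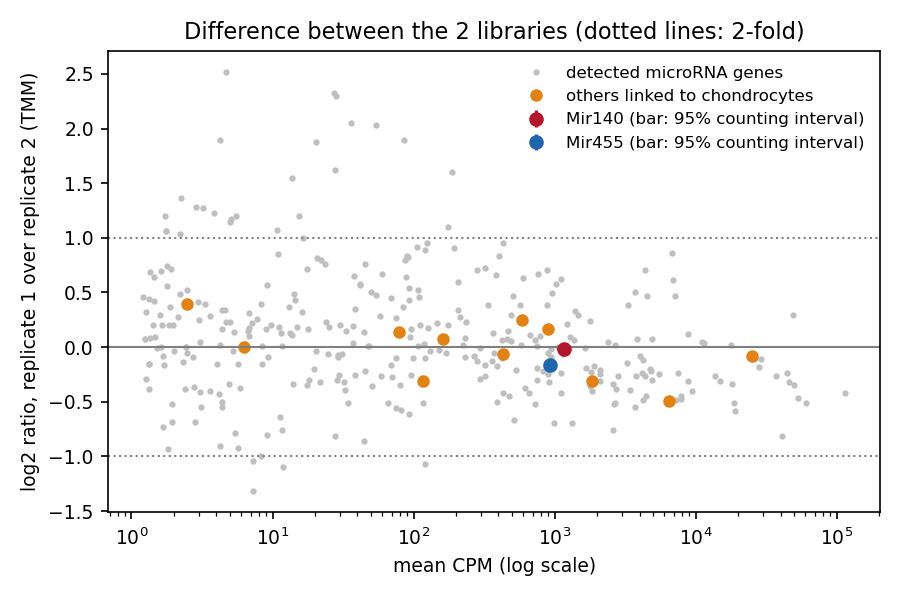
Log2 ratio of replicate 1 over replicate 2 (TMM scaling) against mean CPM (log scale) for the 365 detected genes, with the listed chondrocyte-linked genes in orange and the pair's 95% counting intervals within their points. Mir140 (-0.018) and Mir455 (-0.16) lie near 0, inside the dotted 2-fold lines.

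Across the 13 detected chondrocyte-linked genes, the pair included, the median log2 ratio was -0.018, against 0.015 over all detected genes. With TMM scaling, 2 passed the adjusted p (exact binomial) as higher in replicate 1, Mir145a (0.16) and Mir320 (0.25), where 30.1% of detected genes did. As higher in replicate 2 passed 5, where 31.0% of detected genes did, namely Mir455, Mir675 (-0.31), Mir337 (-0.50), Mir322 (-0.082) and Mir27b (-0.31). The other 6 did not pass. Of the 13, 0 reached 2-fold together with the adjusted p, where 7.40% of detected genes did. Under library totals 8 passed as higher in replicate 1, where 47.9% of detected genes did, and 2 as higher in replicate 2, where 16.4% did. Mir322 and Mir455 changed sides, so the split follows the scaling. Of the lists, the epithelial and skin genes had the highest median log2 ratio (2.03, TMM scaling). They took 0.0531% of counts in replicate 1 and 0.0335% in replicate 2, and none had 0 counts. At least 2-fold higher in replicate 1 were 5 of 7, where 6.30% of detected genes were so and passed the adjusted p. Those 5 are Mir200a, Mir200b, Mir200c, Mir141 and Mir429. Mir203 (-0.12) and Mir205 (-0.065) went the other way, and of these only Mir203 passed the adjusted p. The part of the epithelial and skin genes in the values of Mir140 and Mir455 was not tested.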

How the data were processed

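For each library the authors deposited raw read counts of 1973 microRNA genes in 3 columns (both strands together, then each strand), with 4 rows of reads assigned to none. The deposited readme names mm10 and GENCODE M4. Aligner and counter: not given in the sources used here. The strand column with most counts was read as the annotated one, which the sources used here do not state. Of 16398945 and 21037937 reads, 7955914 and 10816295 were annotated-strand counts. The 4 other rows (45.7% and 41.7% of reads) stayed out, among them reads that fit more than 1 place (28.0% and 26.9%), so levels of genes with close copies are lower limits.

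Symbols, coordinates and hosts came from GENCODE M21 (GRCm38, the same assembly as mm10), matching 1894 of 1973 IDs without version. Shared 20-base stretches were sought, on either strand, among annotated hairpins that do not overlap, not in the rest of the genome. Mature strands came from RefSeq. TMM factors (1.09 and 0.918) and dispersion came from edgeR 4.0.16 in R 4.3.3, and tests from scipy 1.17.1. The tests were run on simulated counts with counting noise alone, and calls were scored with the 2-fold minimum. That check does not cover calls by adjusted p alone, or spread between samples beyond counting noise. The 2 libraries differed beyond counting noise and were kept as 2 samples.

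The members and lists were chosen with earlier results of these data known. Named genes were Mir140 and Mir455, for each the 5 nearest genes and the 2 above and below in level, all detected chondrocyte-linked genes, up to 3 highest of each other list, seed sharers, genes in the same hosts or in collagen genes, and Mir206. Others were chosen after their values were seen. Symbols of the lists without a match were Mir3960, Mir1a-2, Mir142, Mir124-1, Mir124-2 and Mir9-1. The alternatives tried were both strands together, minimums of 1 and 50 counts, library totals, DESeq2 1.42.0 size factors, a total without Mir206, counts per base, a 1.5-fold minimum and leaving out each replicate.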

Additional observations from a re-analysis of the deposited data

Results flagged for a closer look

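Opposite-strand counts, which the levels above do not use, were 0 for Mir140 and Mir455. Among the other genes of the chondrocyte-linked list they exceeded 3 counts in both libraries at Mir337 alone, with 295 in replicate 1 and 423 in replicate 2. Mir3544 is annotated there on the minus strand, inside the bounds of Mir337 on the plus strand, and has no row of its own in the tables.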

How the results depend on the processing

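The level of Mir140 was 1034 CPM with unstranded counts and 1314 CPM with a total without Mir206, and that of Mir455 818 and 1040 CPM. Both changes follow from the denominator, since the genes' own counts are the same. With TMM-scaled sizes the levels stayed within 1 SD. Leaving out each replicate gave 1073 to 1257 CPM for Mir140, 895 to 949 for Mir455 and a ratio of 1.20 to 1.32. Per annotated base the ratio was 1.48. The library ratio of Mir140 turned positive under library totals (0.23, adjusted p = 3.16e-30, exact binomial), a count minimum of 1 (0.066, adjusted p = 0.00239, exact binomial) and a count minimum of 50 (0.0049, adjusted p = 0.830, exact binomial). It thus passed the adjusted p, as higher in replicate 1, in the first and second of these. Over all alternatives its adjusted p lay between 3.16e-30 and 0.830. That of Mir455 turned to 0.084 under library totals and stayed negative and past the adjusted p in the other 4 alternatives. The 27 genes at least 2-fold apart became 42 under library totals, 15 with a count minimum of 50 (278 genes tested) and 72 with a fold minimum of 1.5. With library totals 41 of 42 were higher in replicate 1, against 23 of 27. Detected genes numbered 591 at a count minimum of 1. No paired analysis was possible because the samples form 1 group. With 2 libraries the spread is imprecise, and edgeR's biological coefficient of variation of 0.257 rests on the same pair.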
